A study of Mus musculus with 10 samples.

Results

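The transcripts described here encode the subunits of the AMPA and kainate receptors, the ion channels that carry most of the fast excitatory current opened by glutamate in the brain. They were taken as every probe set whose single annotated gene symbol was Gria1 to Gria4 or Grik1 to Grik5, which gave 9 probe sets, 1 for each of the 9 genes, of 21789 probe sets with 1 symbol and 35556 in the table. RNA came from whole brains of male C57BL/6J offspring at postnatal day 70. Mothers of the ethanol groups had access to 10% ethanol in water, those of the control groups to water only, up to postnatal day 10 of the litter and including gestation from day 0. Experiment 1 had 2 ethanol and 2 control arrays, each loaded with RNA pooled from 3 mice. Experiment 2 had 3 ethanol and 3 control arrays, each from 2 mice. Pooling was meant to dilute litter effects, but which litter each brain came from is not labelled, and the p-values given here reflect only how pools varied. The offspring were exposed through the mother, with no intake or blood ethanol value in the labels.

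AMPA receptors are tetramers of the products of Gria1 to Gria4. The Gria2 product, after RNA editing at a single pore residue, keeps calcium out of the channel, so the share of receptors that contain it sets their calcium permeability. Kainate receptors are tetramers in which the products of Grik1, Grik2 and Grik3 can form a channel on their own, while those of Grik4 and Grik5 bind kainate tightly but need one of the other 3 subunits to reach the membrane. Kainate receptors act on both sides of the synapse and are known above all from hippocampal mossy fibres and cerebellar granule cells. A whole-transcript probe set gives 1 value per gene, so the flip and flop splice forms and edited and unedited transcripts cannot be told apart in these data.

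The promoter sequence is shown for the 4 subunit genes whose ethanol arrays were all below the control arrays in experiment 1. This held for 19.2% of all probe sets, and with each array centred on its median for Grik2 alone of the 4, so it served only to pick them. The letters are the 250 bases before the annotated transcription start in RefSeq (GRCm38.p6), 5′ to 3′ on the gene's own strand, and capitals mark a GC box (GGGCGG) or a CCAAT box (CCAAT) on either strand.
Gria2 (chr3:80802836-80803085, minus strand): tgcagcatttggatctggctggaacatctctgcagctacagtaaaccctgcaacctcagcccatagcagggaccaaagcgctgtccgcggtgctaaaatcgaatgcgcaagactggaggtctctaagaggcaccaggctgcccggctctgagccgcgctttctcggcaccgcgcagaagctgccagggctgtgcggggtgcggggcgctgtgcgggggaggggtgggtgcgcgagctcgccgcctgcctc
Gria4 (chr9:4796235-4796484, minus strand): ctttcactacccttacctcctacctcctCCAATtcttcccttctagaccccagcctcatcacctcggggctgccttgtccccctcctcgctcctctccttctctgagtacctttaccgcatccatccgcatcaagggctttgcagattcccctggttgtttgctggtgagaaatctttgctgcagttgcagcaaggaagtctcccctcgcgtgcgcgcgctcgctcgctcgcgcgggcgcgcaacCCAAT
Grik2 (chr10:49788755-49789004, minus strand): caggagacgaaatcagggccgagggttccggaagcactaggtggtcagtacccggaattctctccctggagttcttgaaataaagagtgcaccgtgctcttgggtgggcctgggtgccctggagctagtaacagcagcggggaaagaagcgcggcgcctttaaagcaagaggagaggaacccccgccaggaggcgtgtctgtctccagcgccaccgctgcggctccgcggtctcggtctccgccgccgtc
Grik3 (chr4:125490446-125490695, plus strand): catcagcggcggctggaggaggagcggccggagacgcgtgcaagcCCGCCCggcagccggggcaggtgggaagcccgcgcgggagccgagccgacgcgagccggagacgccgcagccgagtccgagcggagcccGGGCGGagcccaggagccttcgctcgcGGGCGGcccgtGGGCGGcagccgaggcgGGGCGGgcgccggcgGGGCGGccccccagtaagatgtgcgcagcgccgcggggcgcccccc
The Grik3 window held 6 GC boxes and the Gria4 window 2 CCAAT boxes, none of them overlapping another. Of 32851 RefSeq windows of this length, 32.7% held a GC box and 33.8% a CCAAT box. Neither motif was in the letters of the Gria2 or Grik2 window, and none of the 4 windows held a TATA box (TATAAA, in 12.4% of all windows) or a cAMP response element (TGACGTCA, in 1.55%), both searched on both strands. The windows were 64.8% (Gria2), 58.8% (Gria4), 62.8% (Grik2) and 82.0% (Grik3) G or C, against a median of 52.4% over all windows. RefSeq windows were matched for 6 of the 9 genes, the others of the 6 being Grik4 and Grik5.

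Values are the deposited log2 levels. For every probe set the mean over experiment 1 equalled that over experiment 2 to within 5.83e-05, so levels cannot be set against each other across experiments, and each comparison is within an experiment. Array medians over the whole table ran from 6.99 to 7.05 and correlations between arrays from 0.989 to 0.996. The 8 neuronal markers measured, such as Snap25 and Rbfox3, had mean levels of at least 9.23. Anterior pituitary markers stood apart on 3 ethanol arrays: their mean over 8 genes was 8.02 and 7.23 on the ethanol arrays and 5.82 and 5.97 on the control arrays of experiment 1, and 6.38, 8.55 and 6.41 on the ethanol arrays and 6.32, 6.25 and 6.66 on the control arrays of experiment 2. The number of arrays limits precision.

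Over both experiments, the AMPA and kainate subunit transcripts differed little between ethanol and control brains. The 9 differences ran from -0.037 log2 units (Gria4) to 0.048 (Gria3), with 5 above 0 and 4 below, where 45.6% of all probe sets were above 0. None passed an adjusted p of 0.05 (0 of 9, and 0% of all 21789 probe sets; limma, smallest adjusted p among the 9 = 0.645). At an unadjusted p under 0.05 there were also 0 of 9, while 12.4% of all probe sets passed that mark, and an unmoderated linear model likewise called 0 of 9. The median over the 9 was 0.010, and over all probe sets -0.0083. The standard errors lay between 0.038 and 0.061, and the 95% intervals of the 9 differences reached from -0.16 (Gria4) to 0.15 (Grik2), that is from 10.5% lower to 10.6% higher in ethanol brains. The 9 differences are averages over the experiments, whose signs were the same for 3 of 9 and for 57.5% of all probe sets. Grik2 differed by -0.17 in experiment 1 and by 0.14 in experiment 2. In whole-brain RNA, fewer cells that carry a transcript and less of it per cell cannot be told apart.

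**Figure D1:**
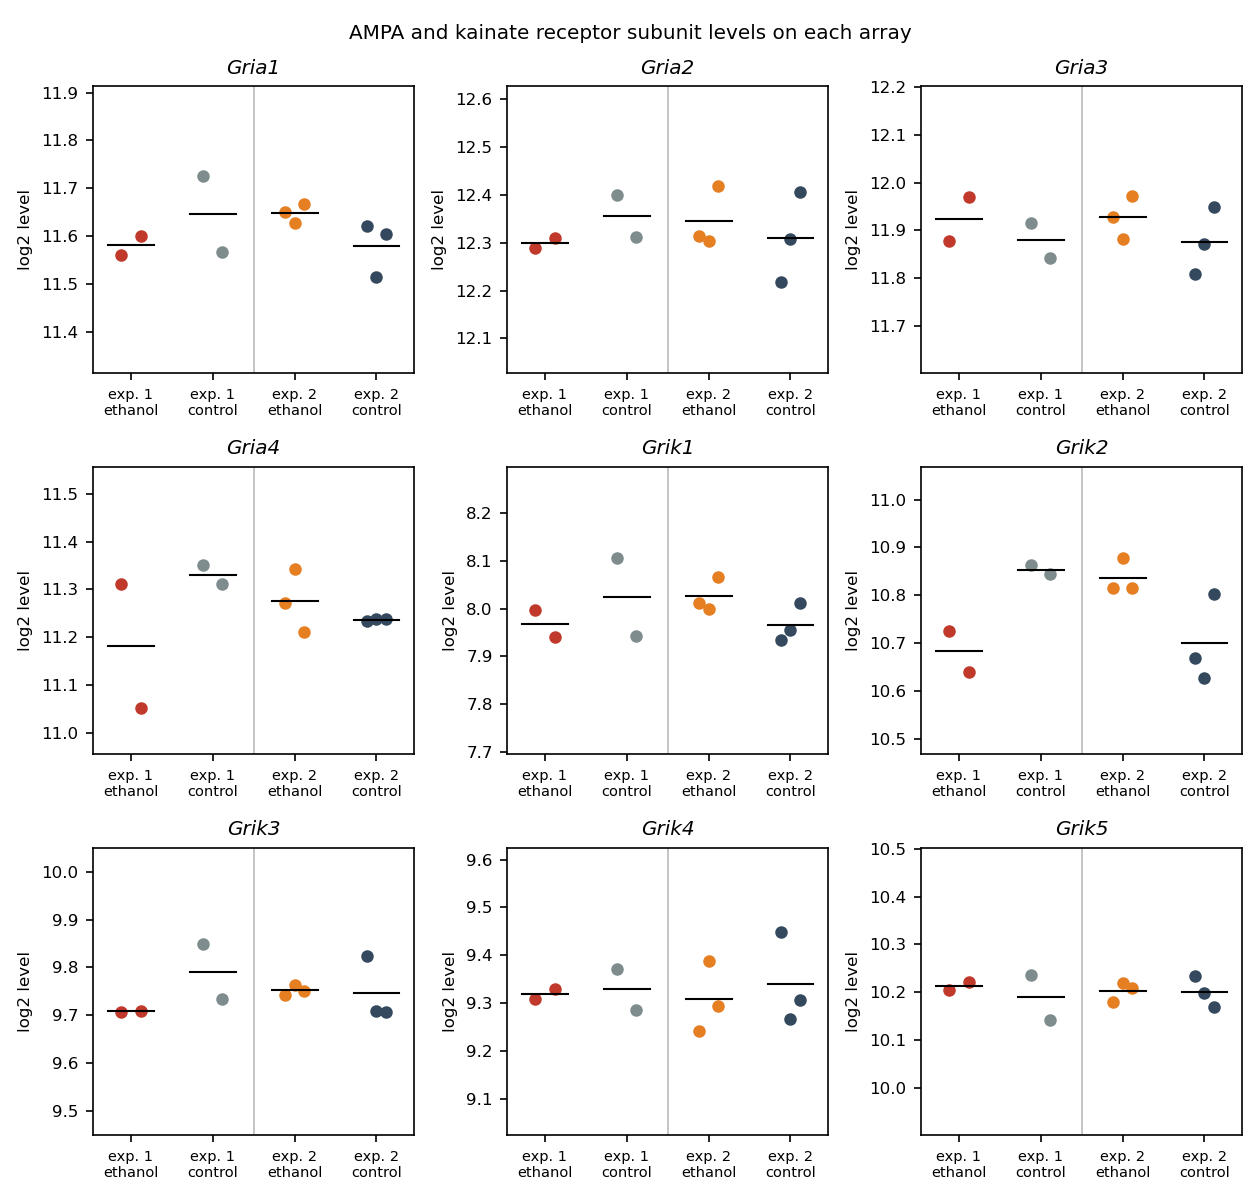
Deposited log2 level (y axis, a span of 0.6 units around each gene's mean) of the 9 subunit genes on each of the 10 arrays (points), by experiment and treatment (x axis); black lines are group means. The Grik2 points of the ethanol arrays lie below the controls in experiment 1 and above them in experiment 2.

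Among the AMPA subunits, Gria1, which encodes the subunit whose activity-dependent insertion is best known from hippocampal long-term potentiation, read 11.56 and 11.60 in ethanol pools of experiment 1 and 11.73 and 11.57 in control pools. The groups overlapped, with a difference of -0.066 ± 0.070 (SE, adjusted p = 0.818, limma). In experiment 2 Gria1 had 11.65, 11.63 and 11.67 on the ethanol arrays and 11.62, 11.51 and 11.60 on the control arrays. Every ethanol array was above every control there, by 0.069 ± 0.057 on average, which did not pass (adjusted p = 0.703, limma).

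Gria2, the calcium-blocking subunit, showed the smallest difference of the 9 over both experiments (-0.0019 ± 0.048). Its levels in experiment 1 were 12.288 and 12.311 on the ethanol arrays and 12.399 and 12.313 on the control arrays. Both ethanol arrays were thus below both controls, though the nearest pair all but coincided. In experiment 2 the ethanol arrays had 12.314, 12.303 and 12.418, and the control arrays 12.218, 12.307 and 12.406, and the groups overlapped. Out of 10893 compared, 3 probe sets were closest to Gria2 across the 10 arrays, as deviations from the experiment mean. They were those of Rbfox2, a splicing factor (r = 0.98), Ppp1r9a, the actin-binding protein neurabin (r = 0.97), and Srrm2, a splicing component (r = 0.96). These r are descriptions chosen as the highest, and arrays of both treatments share in them.

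Gria3, the X-linked AMPA subunit, was the one with the smallest p of the 9 over both experiments, and it was the only AMPA subunit whose mean was higher in ethanol brains in both experiments. It had 11.88 and 11.97 on the ethanol arrays and 11.92 and 11.84 on the control arrays of experiment 1. In experiment 2 it had 11.93, 11.88 and 11.97 on the ethanol arrays and 11.81, 11.87 and 11.95 on the control arrays. The groups overlapped in each experiment, and the difference over both was 0.048 ± 0.043 (adjusted p = 0.645, limma). Its closest probe sets were those of Fnbp1l, a membrane-curving F-BAR protein (r = 0.92), 4932438A13Rik (r = 0.92) and Hectd4 (r = 0.90), again over 10 arrays and 10893 probe sets.

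Gria4, the subunit that Bergmann glia, cerebellar granule cells and fast-spiking interneurons are known to express, had the largest standard error of the 9 within each experiment. Its levels in experiment 1 were 11.311 and 11.052 on the ethanol arrays, against 11.351 and 11.311 on the control arrays. Ethanol replicate 2 was far below the rest, and the other ethanol array read almost the same as the lower control. The difference was -0.15 ± 0.083 (adjusted p = 0.63, limma), -0.28 without ethanol replicate 1 and -0.020 without ethanol replicate 2. In experiment 2 the ethanol arrays had 11.272, 11.343 and 11.210, around control values of 11.234, 11.238 and 11.239, a difference of 0.038 ± 0.067.

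On a single array of each experiment, low cerebellar markers went with low Gria4 and high Gria3. The mean of the 12 granule and Purkinje cell markers measured was 9.90 and 9.53 on the ethanol arrays and 10.03 and 10.03 on the control arrays of experiment 1, and 9.89, 9.90 and 9.62 on the ethanol arrays and 10.00, 9.91 and 9.89 on the control arrays of experiment 2. All 12 markers had a lower mean in ethanol brains in each experiment, as did all 5 Bergmann glia markers. Of all probe sets, 48.2% were higher in ethanol brains in experiment 1 and 45.1% in experiment 2. Among the 25% of probe sets with the highest levels, these shares were 32.8% and 26.8%. The array with the lowest Gria4 in each experiment was also the one with the lowest cerebellar marker mean, and on both of these arrays Gria3 had its highest level of the experiment (11.97). Among the other arrays of experiment 2, the highest marker mean (10.00, control replicate 1) went with the lowest Gria4 (11.234). Over the 10 arrays, as deviations from the experiment mean, Gria4 correlated with the cerebellar marker mean by r = 0.81. Its r was 0.67 with the Bergmann glia markers, 0.59 with oligodendrocyte precursor markers and 0.56 with hippocampal CA3 and dentate gyrus markers. In experiment 1 the median difference was -0.33 for the cerebellar list and -0.19 for the Bergmann glia list, and in experiment 2 -0.11 and -0.094. None of these markers passed adjusted p 0.05 (limma, smallest 0.306 over both experiments), and their part in the Gria4 and Gria3 values was not tested.

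**Figure D2:**
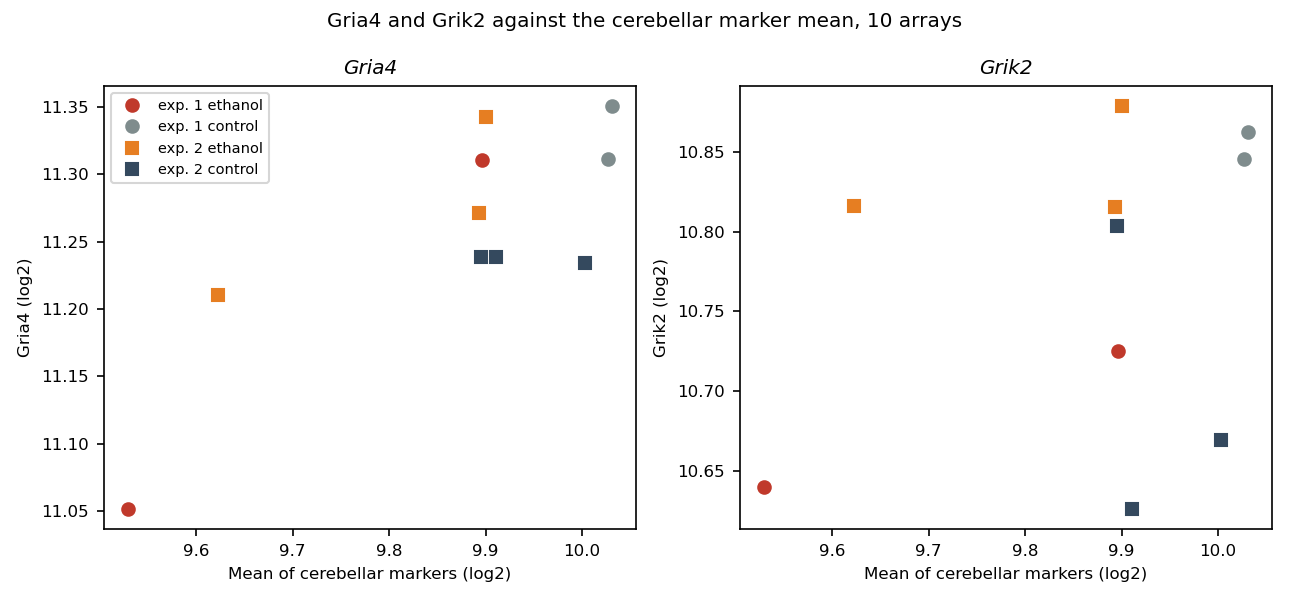
Level of Gria4 (left) and Grik2 (right) on the y axis against the mean of 12 cerebellar markers on the x axis, both in deposited log2 units, 1 point per array. The Gria4 values of 11.052 and 11.210 belong to the arrays with marker means of 9.53 and 9.62. Grik2 on the array at 9.53 was 10.64, its lowest value in experiment 1. On the array at 9.62 it was 10.816, among the higher values of experiment 2.

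Of the kainate subunits, Grik2 had the clearest difference in each experiment, and the differences were opposite. It encodes GluK2, the main channel-forming kainate subunit of hippocampal and cerebellar neurons. In experiment 1 its level was 10.73 and 10.64 on the ethanol arrays, against 10.86 and 10.85 on the control arrays. In experiment 2 it was 10.815, 10.879 and 10.816 on the ethanol arrays, against 10.670, 10.626 and 10.804 on the control arrays. Ethanol and control arrays did not overlap in either experiment, with the ethanol arrays all low in the first and all high in the second, where control replicate 3 came close to them.

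The Grik2 difference was -0.17 ± 0.072 in experiment 1 (unadjusted p = 0.0347, adjusted p = 0.521, limma) and 0.14 ± 0.058 in experiment 2 (unadjusted p = 0.0383, adjusted p = 0.47, limma). Over both experiments these gave 0.013 ± 0.061. The difference between the experiments, 0.31 ± 0.092, had an unadjusted p of 0.0063 and an adjusted p of 0.665 (limma) and so did not pass. Of all probe sets, 1.04% had every ethanol array lower in experiment 1 and higher in experiment 2, and 6.57% had an unadjusted p under 0.05 for the difference between experiments (3.33% with a higher difference in experiment 2), Grik2 being the only 1 of the 9 subunits there. No subunit passed adjustment for this difference (0 of 9, and 0% of all probe sets). The difference was above 0 for 7 of 9 subunits, and for 47.3% of all probe sets. Grik2 was also the only subunit with an unadjusted p under 0.05 in experiment 1 (1 of 9, where 8.95% of all probe sets passed and 4.93% were lower) or in experiment 2 (1 of 9, where 9.97% passed and 3.78% were higher), and 0 of 9 passed adjusted p 0.05 in either, with 0% of all probe sets. Under the alternatives tried, the unadjusted p of Grik2 ranged from 0.0168 to 0.161 in experiment 1 (limma, highest without ethanol replicate 2) and from 0.0084 to 0.15 in experiment 2 (limma, highest without control replicate 2), with no change of sign within either. No subunit passed in any of these alternatives, but without ethanol replicate 1 of experiment 1 the calls over all probe sets were 235 in experiment 1 and 94 for the difference between experiments.

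The 7 microglia markers averaged 8.46 and 8.44 on the ethanol arrays and 8.47 and 8.35 on the control arrays of experiment 1, with 6 of 7 higher in ethanol brains, none at an unadjusted p under 0.05. In experiment 2 they averaged 8.36, 8.37 and 8.37 on the ethanol arrays and 8.54, 8.50 and 8.43 on the control arrays, with 5 of 7 lower, 4 of them at that mark. The 7 choroid plexus markers averaged 8.66, 8.59 and 8.51 on the ethanol arrays and 8.89, 8.95 and 8.81 on the control arrays of experiment 2, with 7 of 7 lower, 5 at that mark, and 8.74 and 8.68 on the ethanol arrays and 8.76 and 8.76 on the control arrays of experiment 1, with 5 of 7 lower. Of all 21789 probe sets, 1348 were lower at that mark in experiment 2. At any p, 48.2% of all probe sets were higher in experiment 1 and 45.1% in experiment 2. Both marker lists were thus low on the ethanol arrays of experiment 2, where Grik2 was high. The pattern was not particular to them. Means of the astrocyte, oligodendrocyte and Bergmann glia markers were also lower on every ethanol array of experiment 2 than on every control array. Cerebellar markers were lower in ethanol brains of both experiments. The part of these lists in the Grik2 values was not tested.

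Grik1, whose product forms channels in interneurons and sensory neurons, was lower in ethanol brains of experiment 1 by 0.055 and higher in experiment 2 by 0.059, with overlapping groups in both. Its levels were 7.997 and 7.940 on the ethanol arrays and 8.105 and 7.942 on the control arrays of experiment 1. In experiment 2 they were 8.012, 7.999 and 8.066 on the ethanol arrays and 7.934, 7.954 and 8.012 on the control arrays. Grik3, the low-affinity channel-forming subunit, had 9.708 and 9.709 on the ethanol arrays and 9.848 and 9.734 on the control arrays of experiment 1, with no overlap and a difference of -0.083 ± 0.067. In experiment 2 Grik3 had 9.74, 9.76 and 9.75 on the ethanol arrays and 9.82, 9.71 and 9.71 on the control arrays, a difference of 0.0050 ± 0.054.

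The groups overlapped in each experiment for both high-affinity subunits. Grik4, known for its expression in hippocampal CA3 neurons, had 9.31 and 9.33 on the ethanol arrays and 9.37 and 9.29 on the control arrays of experiment 1. In experiment 2 Grik4 had 9.24, 9.39 and 9.29 on the ethanol arrays and 9.45, 9.27 and 9.31 on the control arrays. Ethanol values lay inside the control range of experiment 1 and overlapped it in experiment 2, with differences of -0.010 ± 0.077 and -0.033 ± 0.063. Grik5, the widely expressed high-affinity subunit, had 10.21 and 10.22 on the ethanol arrays and 10.24 and 10.14 on the control arrays of experiment 1. In experiment 2 Grik5 had 10.18, 10.22 and 10.21 on the ethanol arrays and 10.23, 10.20 and 10.17 on the control arrays. The differences of Grik5 were 0.024 ± 0.061 and 0.0013 ± 0.050, the last being the smallest of any subunit within an experiment.

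**Figure D3:**
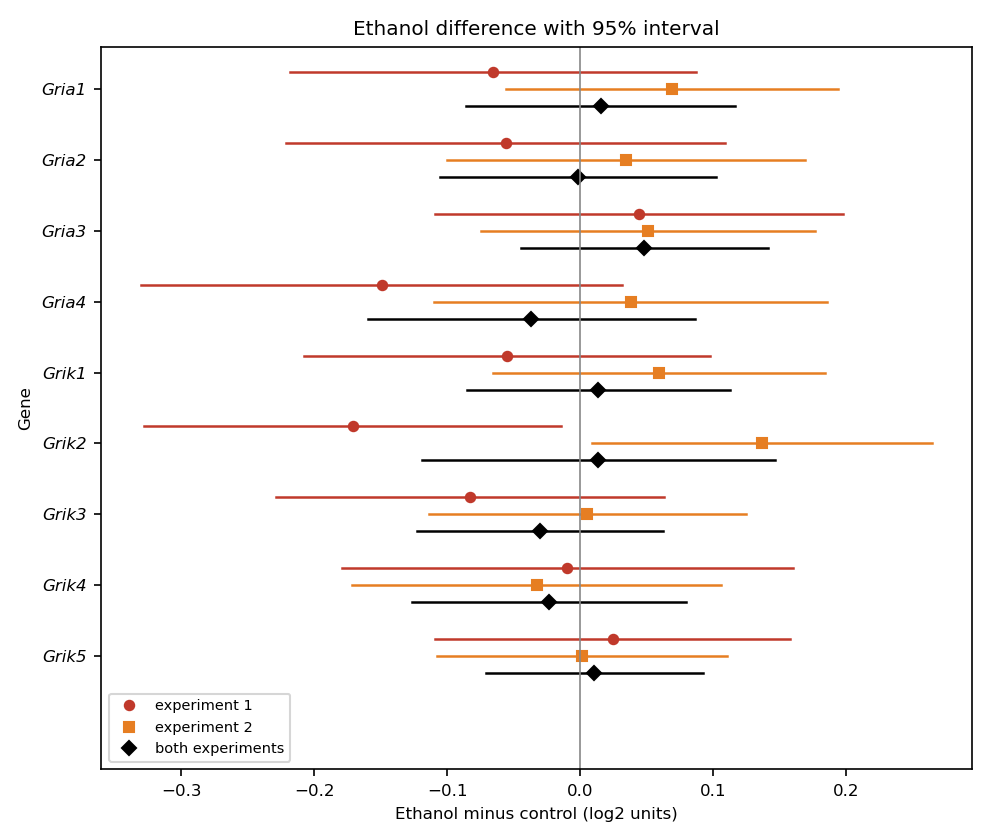
Ethanol minus control in log2 units (x axis) for each subunit gene (y axis) in experiment 1, experiment 2 and both, with 95% intervals from limma. All 9 intervals over both experiments include 0, and the Grik2 intervals of the separate experiments lie on opposite sides of it.

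By experiment, the subunits leaned opposite ways, in experiment 1 the way most probe sets of like signal level went, as given below. The subunits were read on the same pools and are not separate observations of the treatment. As deviations from the experiment mean over 10 arrays, 26 of the 36 pairs of subunits correlated above 0 (median r = 0.35). In experiment 1, 7 of 9 were lower in ethanol brains (median -0.056 over the 9, -0.0045 over all probe sets, 51.8% of which were lower). The lean of experiment 1 depended on control replicate 1: the median was 0.013 without it, and -0.14 without control replicate 2. In experiment 2, 8 of 9 were higher (median 0.038, against -0.011 over all probe sets, 45.1% of which were higher). Every ethanol array was below every control for 4 of 9 in experiment 1 (Gria2, Gria4, Grik2 and Grik3), which held for 19.2% of all probe sets, and above every control for 2 of 9 in experiment 2 (Gria1 and Grik2), which held for 7.62%. The opposite placement, every ethanol array higher in experiment 1 or lower in experiment 2, was found for 0 of 9 in each, against 15.1% and 11.6% of all probe sets. With each array centred on its median, Grik2 alone remained of the 4 in experiment 1, and without control replicate 2 of experiment 1 the count was 8. Without control replicate 1 of experiment 1 the same 4 were lower and Gria3, Grik4 and Grik5 were higher on every ethanol array. After quantile normalization Gria1, Gria2 and Grik2 were lower, and Grik4 and Grik5 higher, on every ethanol array of experiment 1. The sign was the same in both experiments for 3 of 9 (Gria3, Grik4 and Grik5), and for 57.5% of all probe sets. None of the 9 had ethanol and control arrays apart in the same direction in both experiments, as 4.29% of all probe sets did.

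The direction of a difference also went with signal level in these arrays. With the probe sets split by mean level into 4 classes of equal size, 8 of the 9 subunits lay in the highest class and Grik1 in the one below. Over both experiments 22.5% of the probe sets of the highest class were higher in ethanol brains (median -0.039), and 4 of these 8 subunits were. In experiment 1, 32.8% of that class were higher, and 2 of the 8 subunits were. The lean of experiment 1 thus stood near that of probe sets of like level. In experiment 2, 26.8% of that class were higher, and 7 of the 8 subunits were. What part signal level has in the subunit values was not tested.

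**Figure D4:**
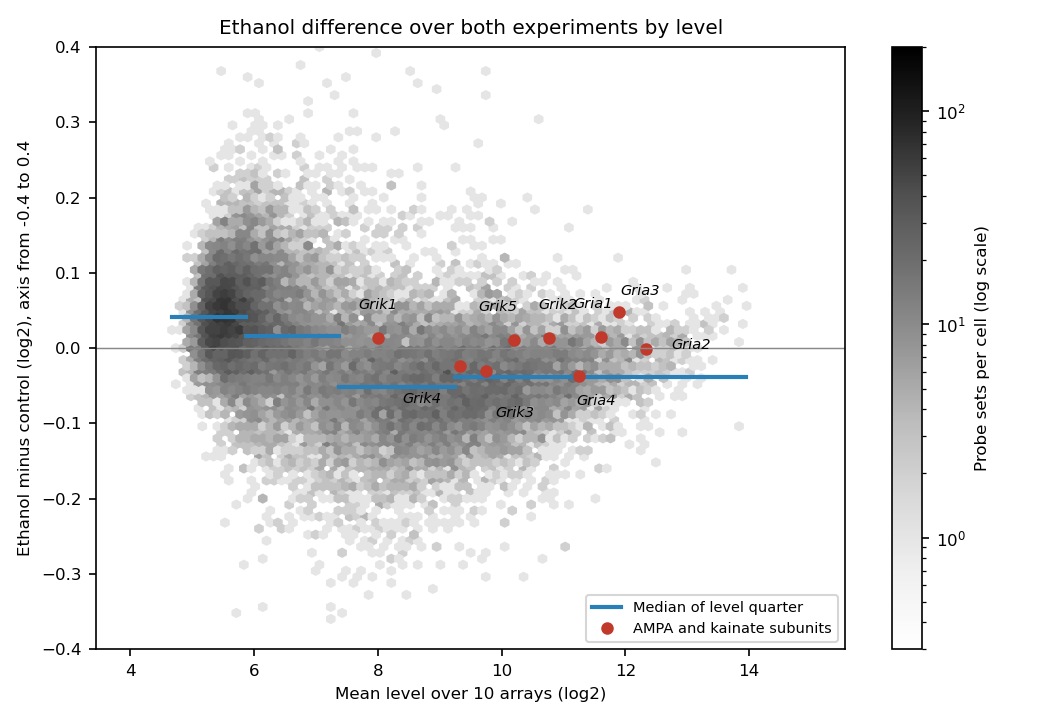
Ethanol minus control over both experiments (y axis, log2 units) against mean level over 10 arrays (x axis, log2 units) for 21789 probe sets in grey, of which 24 lie beyond the y axis. Blue lines are the medians of 4 classes of level (-0.039 in the highest), and red points the 9 subunits, from -0.037 for Gria4 to 0.048 for Gria3.

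Genes whose products work with these receptors were set beside the subunits. Of 73 such genes on 7 lists, 67 had a probe set with 1 symbol, and 0 of them passed adjusted p 0.05 in either experiment or over both (limma, and 0 by an unmoderated linear model). At an unadjusted p under 0.05 over both experiments there was 1, Rab11a, a recycling-endosome GTPase that returns AMPA receptors to the membrane (-0.087 ± 0.039, adjusted p = 0.40), where 7.68% of all probe sets were lower at that mark. In experiment 1 there were 2 at that mark (Shisa6 and Adarb2) and in experiment 2 there were 4 (Nptx2, Rab11a, Ppp1ca and Slc17a6), fewer of the 67 than the 8.95% and 9.97% of all probe sets.

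The 20 measured AMPA receptor auxiliary subunits and assembly proteins, which set the trafficking and gating of the channel, were lower in 15 cases over both experiments (median -0.031, against -0.0083 over all probe sets, 54.4% of which were lower), with 0 passing. Of the 20, 16 lay in the highest level class, where 22.5% of probe sets were higher, and 5 of these 16 were higher, so the count stood near that of probe sets of like level. The smallest p were those of Cacng4, a transmembrane AMPA receptor regulatory protein (-0.078 ± 0.046), Olfm3, a secreted olfactomedin (-0.097 ± 0.058), Shisa6 (-0.11 ± 0.081), which keeps AMPA receptors at the synapse, and Porcn (-0.067 ± 0.059). Shisa6 had an unadjusted p of 0.0429 in experiment 1 (-0.27 ± 0.12, adjusted p = 0.544, limma). The best known member, Cacng2 (stargazin, named after its values were seen), differed by -0.023 ± 0.042.

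Of the kainate receptor partners, Neto2 (-0.082 ± 0.051) and Neto1 (0.028 ± 0.045), the auxiliary subunits that slow kainate receptor gating, and the secreted C1q-like proteins C1ql2 (-0.030 ± 0.061) and C1ql3 (-0.027 ± 0.051), which recruit kainate receptors at mossy fibre synapses, did not pass. All 4 were lower in experiment 2 and 3 of 4 were higher in experiment 1. Neto2 had 11.16 and 11.07 on the ethanol arrays and 11.26 and 11.07 on the control arrays of experiment 1, and 11.13, 11.11 and 11.02 on the ethanol arrays and 11.23, 11.09 and 11.25 on the control arrays of experiment 2. The groups overlapped in both.

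The RNA editing enzymes include Adarb1, which edits the pore codon of Gria2 and the matching sites of Grik1 and Grik2. Adarb1 differed by -0.054 ± 0.039 over both experiments and had 10.32 and 10.35 on the ethanol arrays of experiment 1 and 10.39 and 10.30 on its control arrays. In experiment 2 it had 10.283, 10.278 and 10.326 on the ethanol arrays, all below the control values of 10.357, 10.415 and 10.374, a difference of -0.086 ± 0.050 (unadjusted p = 0.109, limma). Adar differed by -0.044 ± 0.043. Adarb2, a brain protein of the family with no known editing activity, was lower by 0.24 in experiment 1 (unadjusted p = 0.0149, adjusted p = 0.446, limma) and higher by 0.12 in experiment 2.

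The 9 measured genes of the kinase and phosphatase list carry out or regulate phosphorylation of the receptor tails or its reversal. They were higher in 9 of 9 cases in experiment 1 (median 0.061) and in 0 of 9 in experiment 2 (median -0.026), opposite to most subunits in each. Of all probe sets, 48.2% and 45.1% were higher, and of the highest level class, which held all 9 genes, 32.8% and 26.8%. The list mean in experiment 1 was 11.72 and 11.77 on the ethanol arrays and 11.73 and 11.65 on the control arrays. The ethanol arrays thus lay on either side of control replicate 1 and above control replicate 2. Only Ppp1ca, a catalytic subunit of protein phosphatase 1, had an unadjusted p under 0.05 in either experiment (-0.17 ± 0.074 in experiment 2, adjusted p = 0.477, limma). Camk2a, the calcium/calmodulin-dependent kinase that phosphorylates the Gria1 product, differed by 0.026 ± 0.044 over both, Ppp3ca, the calcineurin catalytic subunit, by 0.020 ± 0.049, and Ppp3r1, its regulatory subunit, by -0.034 ± 0.047.

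Of 23 scaffold and trafficking genes, 12 were higher and 11 lower over both experiments (median 0.00010). After Rab11a the smallest p were those of Nptx2 (-0.11 ± 0.075), a secreted pentraxin that clusters AMPA receptors, the sorting nexin Snx27 (-0.072 ± 0.051) and Grip2 (-0.057 ± 0.045), which binds the Gria2 tail. Nptx2 was lower in experiment 2 by 0.27 (unadjusted p = 0.0019, adjusted p = 0.301, limma) and higher in experiment 1 by 0.13. Of 7 glutamate transporters, the vesicular transporter Slc17a6 of subcortical neurons (-0.13 ± 0.063) and the Purkinje cell transporter Slc1a6 (-0.13 ± 0.075) had the smallest p, followed by the cortical vesicular transporter Slc17a7 (0.039 ± 0.040) and Slc1a1 (-0.049 ± 0.055). Slc17a6 was lower in experiment 2 by 0.22 (unadjusted p = 0.0096, adjusted p = 0.38, limma). The delta receptor Grid1, a relative that glutamate does not open, differed by -0.039 ± 0.062.

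**Figure D5:**
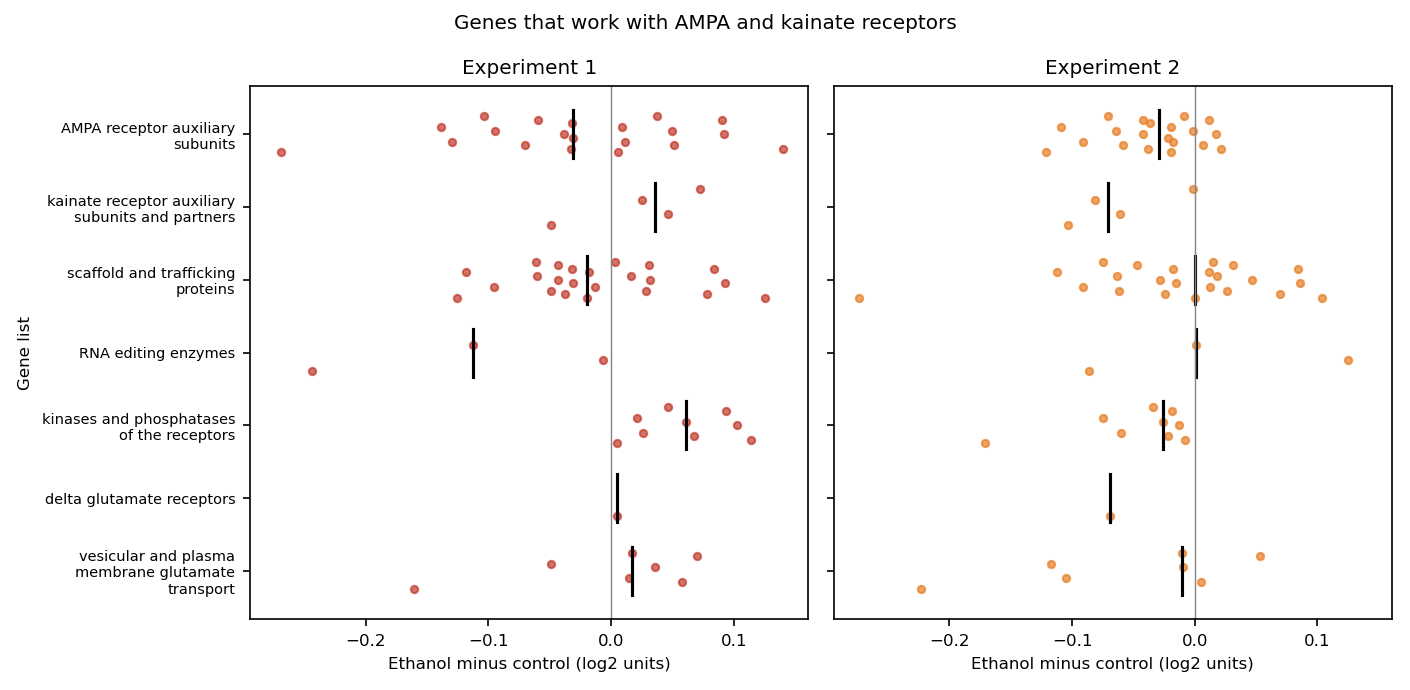
Ethanol minus control in log2 units (x axis) in experiment 1 (left) and experiment 2 (right) for the 67 measured genes on 7 lists (y axis), 1 point per gene, with the list's median as a black bar. The kinase and phosphatase list lies above 0 in 9 of 9 cases in experiment 1 and below it in 9 of 9 in experiment 2. All 9 of these genes belong to the highest level class.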

How the data were processed

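Pooled whole-brain RNA, 200 ng per array, was labelled and run on a whole-transcript Affymetrix array, as the labels' protocols state. What the authors deposited is 1 log2 level for each probe set and array (10 arrays). The submitters' processing notes name Partek 6.6. How background was corrected, how arrays were normalized and whether experiment differences were removed is not given in the sources used here. Gene symbols came from GEO's platform annotation, which lists 23410 of these probe sets, of which 21789 had 1 symbol (0 symbols changed against the RefSeq table of GRCm38.p6) and 1621 several, none of these naming a subunit.

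Groups came from sample titles. limma 3.58.1 in R 4.3.3 (lmFit, eBayes, Benjamini-Hochberg over 21789 probe sets, threshold 0.05) was fitted with a mean per experiment and treatment (6 residual degrees of freedom) and, over both experiments, with terms for experiment and treatment (7). Differences are ethanol minus control, or experiment 2 minus experiment 1. Gene lists used the probe set with the highest mean. Genes named were all 9 subunits, up to 4 per list by smallest p over both experiments, and, for Gria2 and the subunit with the smallest p, the 3 probe sets above the median level with the highest Pearson r. Cacng2, and Grip1 in the closing section, fall outside this rule and were named after their values were seen. The members and lists were chosen with earlier results of these data known. Alternatives were other normalizations, filters, variance models, a replicate block and leaving out each array. The procedure was tested on simulated data. Of 50 probe sets given a true difference of 0.25 log2 units, it called 9 in each experiment and 26 over both. At 0.5 log2 units it called 35 of 50 in experiment 1, 42 in experiment 2 and 49 over both. Differences as small as those of the subunits could thus often be missed. Figures used matplotlib 3.10.9.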

Additional observations from a re-analysis of the deposited data

Results flagged for a closer look

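The difference between the experiments in the ethanol difference had an unadjusted p under 0.05 for 5 of the 76 subunit and partner genes looked at (limma). Of all probe sets 6.57% had one, so the count was near that share, and none of the 5 passed adjustment. The difference between the experiments was 0.31 for Grik2 (-0.17 in experiment 1 and 0.14 in experiment 2, limma, adjusted p = 0.665), with 2 of 2 ethanol arrays below and 3 of 3 above every control. It was 0.37 for Adarb2 (-0.24 and 0.12, limma, adjusted p = 0.665) and 0.20 for Grip1 (-0.12 and 0.086, adjusted p = 0.745). It was -0.40 for Nptx2 (0.13 and -0.27, limma, adjusted p = 0.665) and -0.29 for Ppp1ca (0.11 and -0.17, adjusted p = 0.745). With 1 array left out in turn, the Grik2 difference ranged from 0.27 to 0.36. Dixon's test for an outlying array was not applied to groups of 2 and 3.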

How the results depend on the processing

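None of the 9 subunits passed adjusted p 0.05 under any of 21 alternatives (smallest adjusted p = 0.133, Gria4 in experiment 1 without its ethanol replicate 1, where the lone ethanol array is assumed to vary like the other groups), and none of the partner genes did. In that setting 235 of all 21789 probe sets passed in experiment 1 and 94 for the difference between experiments, against 0 with all arrays; leaving out any other single array gave 0 to 3. Of 738 subunit values under the alternatives, 689 kept their sign. After quantile normalization the signs that turned were Grik4 in experiment 1 (0.045) and, over both, Gria2 (0.0023), Grik3 (0.0055) and Grik4 (0.013). With arrays centred on their medians they were Grik4 in experiment 1 (0.016) and, over both, Gria2 (0.028) and Grik4 (0.0057). With array weights they were Gria4 over both (0.0045) and Gria3 for the difference between experiments (-0.0020).

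Leaving out 1 array at a time gave, in experiment 1, ranges of -0.15 to 0.013 (Gria1), -0.0023 to 0.091 (Gria3), -0.14 to 0.026 (Grik1), -0.053 to 0.033 (Grik4) and -0.023 to 0.072 (Grik5), and -0.14 to 0.013 for the median of the 9 subunits. With the sign kept, they were -0.099 to -0.013 (Gria2), -0.28 to -0.020 (Gria4), -0.21 to -0.13 (Grik2) and -0.14 to -0.026 (Grik3). In experiment 2 they were -0.012 to 0.082 (Gria2), -0.015 to 0.044 (Grik3), -0.073 to 0.021 (Grik4) and -0.014 to 0.018 (Grik5), and with the sign kept 0.036 to 0.090 (Gria1), 0.017 to 0.087 (Gria3), 0.0039 to 0.070 (Gria4), 0.039 to 0.081 (Grik1) and 0.10 to 0.19 (Grik2). Over both they were -0.010 to 0.052 (Gria1), -0.032 to 0.020 (Gria2), -0.066 to 0.020 (Gria4), -0.0038 to 0.049 (Grik1), -0.023 to 0.055 (Grik2), -0.045 to 0.0072 (Grik4) and -0.0062 to 0.023 (Grik5). For the difference between experiments they were -0.040 to 0.053 (Gria3), -0.066 to 0.031 (Grik4) and -0.070 to 0.024 (Grik5).

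Subunits at an unadjusted p under 0.05 in experiment 1 numbered 0 instead of 1 after quantile normalization, centring, array weights, the replicate block and in a fit of that experiment alone, and 0 to 2 with 1 array left out. In experiment 2 they numbered 0 instead of 1 with the replicate block and 0 to 1 with 1 array left out, and for the difference between experiments 1 to 2. Partner genes at that mark numbered 2 in experiment 1 (1 with centring, all probe sets or array weights, 1 to 5 with 1 array left out), 4 in experiment 2 (2 after quantile normalization, 2 to 5 with 1 array left out), 1 over both (0 with centring, 2 with array weights or the trend and robust prior, 0 to 5 with 1 array left out) and 4 for the difference (2 with array weights, 3 to 7 with 1 array left out). Subunits with no overlap in experiment 1 were 1 lower with centring and 2 higher (against 0) after quantile normalization. With 1 array left out, which itself makes overlap less likely, there were 4 to 8 lower and 0 to 3 higher in experiment 1, and 2 to 4 higher in experiment 2. The cause of these shifts was not tested.

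Whether equal replicate numbers pair the arrays was not settled. With 2 arrays per group in experiment 1, deviations from group means mirror each other, so their correlation (-0.052) can neither show nor exclude pairing. In experiment 2 equal numbers correlated by 0.0062, -0.15 and 0.23. The last was the highest of any ethanol and control pair there, but not every array correlated best with its own number. With the replicate block Grik2 had an unadjusted p of 0.0541 in experiment 1, 0.0587 in experiment 2 and 0.0134 for the difference, with no other change of calls. Background correction and slide or scan batches were not run, as scanner values are not analysed here.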
